A study of Mus musculus with 6 samples.

Results

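Carbonic anhydrases are zinc enzymes that interconvert carbon dioxide and bicarbonate, and so set how fast a cell can buffer and move acid. The family has cytosolic, mitochondrial, membrane-bound and transmembrane members, together with related proteins that have lost the enzyme activity, of which Car8 and Car10 are examples. In brain, Car2 is abundant in oligodendrocytes and choroid plexus and is also found in astrocytes, and Car8 is best known from Purkinje cells of the cerebellum, where it binds the inositol trisphosphate receptor. Expression of 10 family genes (Car2, Car3, Car4, Car5b, Car7, Car8, Car9, Car10, Car12 and Car14) was compared between astrocytes of the mouse neocortex and of the cerebellum. They were found as probe sets whose symbol in the platform annotation, current or former, is 1 of these names, which gave 22 probe sets of the 45037 analysed and 10 of the 18193 genes they represent. The genes had been chosen from the differences between the regions on these same arrays, so the values below describe them and do not test them.

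RNA of neocortical astrocytes was hybridised to 3 arrays and RNA of cerebellar astrocytes to 3 arrays. The labels give the ICR strain for the neocortical arrays and no strain for the cerebellar ones, and they give no age, treatment, culture or purification step, so a strain difference and a regional one cannot be told apart. Whether arrays of a group came from separate animals is not stated, and the spread between them may be technical. Values are quantile-normalized signal in arbitrary units, and differences are log2 differences, cerebellar minus neocortical, with the standard error (SE) of a limma fit over all 27022 probe sets bright enough to be tested. Signals under 62.2 were raised to that value (the floor) before log2 was taken. The array's bacterial controls, which match no mouse gene, read up to 269.2 with a 95th percentile of 116, and signals in that range are called dim here. The control readings are as deposited, because controls were left out of the quantile normalization, so this limit is approximate for normalized signal. Each gene is represented by its brightest probe set, which was bright enough to be tested for 7 of the 10 genes.

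All 10 astrocyte markers examined, among them Gfap, Aqp4, Aldh1l1 and Gja1, read at least 454.2 on every array, above the dim range. Of these, Slc1a3 (1.75-fold), Glul (1.76-fold) and Aldoc (1.74-fold) were called lower in cerebellar samples (adjusted p = 0.00585, 0.00745 and 0.018) and Aqp4 was called 1.54-fold higher (adjusted p = 0.043). These proteins take up glutamate, convert it to glutamine, act in glycolysis and carry water. With array number as a replicate block 5 were lower and 1 higher, and with no filter on dim probe sets none of the 4 was called (adjusted p = 0.0717, 0.0818, 0.138 and 0.213). Glul, Aldoc and Aqp4 were not called without a variance trend, nor Aqp4 with arrays scaled by the median. Left out singly, 4 of the 6 arrays ended the Aldoc call (all neocortical arrays and cerebellar array 3) and 4 the Aqp4 call (neocortical arrays 1 and 3, cerebellar arrays 2 and 3). The summed list read 220364.7, 267158.3 and 246953.3 on neocortical and 159244.1, 229388.2 and 228865.3 on cerebellar arrays, lower on the cerebellar array of each number, with overlapping groups. The part of astrocyte content in the family differences below was not tested. Over all probe sets, 1337 were called higher and 1567 lower in cerebellar astrocytes (adjusted p under 0.05), and scaling the arrays by their medians changed that split to 821 and 2121. The ratio of 3′ to 5′ signal of the Gapdh control, a gauge of RNA integrity, was 0.865 to 0.883 on neocortical and 0.913 to 1.07 on cerebellar arrays. That of the actin control overlapped, at 1.35 to 1.44 and 1.42 to 1.62. The part of RNA integrity in the differences below was not tested.

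Lower signal in cerebellar than in neocortical astrocytes was the common pattern among the tested genes of the 10. By brightest probe set all 7 tested genes had negative differences, with a median of -0.87 against -0.015 over the 12637 genes tested. A second tested Car3 probe set had a positive one (0.23 ± 0.311, SE). The filter on dim probe sets had left out Car4, Car10 and Car12. Without it the differences of Car10 (1.88 ± 0.24, SE) and Car4 (0.42 ± 0.278, SE) were positive and that of Car12 was negative (-0.73 ± 0.272, SE). The fit called 3 of them lower (Car2, Car5b and Car8) and 0 higher, beside 7.47% of all tested genes called lower and 5.4% called higher. The calls in every gene and marker list of this report are to be read beside the same shares. At an unadjusted p under 0.05 the limma counts were 5 lower and 0 higher. The shares above do not apply to that threshold. No share of all tested genes is given for it, here or for the lists below, so such counts have no base rate. With no filter on dim probe sets, Car2, Car5b and Car8 each missed the threshold and Car10 was called higher. Because the contrast had been used to choose the genes, nothing is read from that excess. By brightest probe set, the groups did not overlap for 6 of the 10 genes: 5 lay lower on every cerebellar array (Car2, Car5b, Car8, Car12 and Car14), where 14.8% of all 18193 genes did so, and Car10 lay higher on every cerebellar array, as did 12.7% of all genes. The sign of the difference of each tested gene was the same under every alternative processing that gave it a value, including both other scalings.

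**Figure D1:**
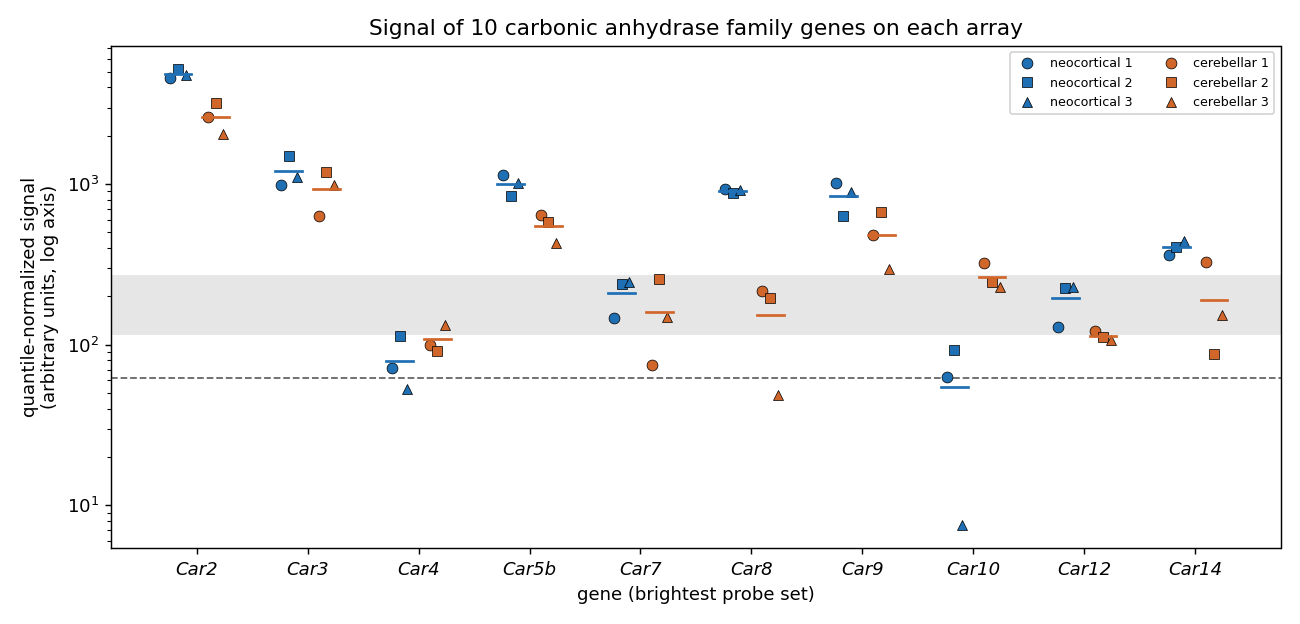
Quantile-normalized signal (arbitrary units, log axis) of the brightest probe set of each of the 10 genes on the 3 neocortical (blue) and 3 cerebellar (orange) arrays, with symbols for the array number and short bars for the arithmetic mean of a group. The grey band runs from the 95th percentile (116) to the highest reading (269.2) of the bacterial controls, as deposited, and the dashed line marks the floor (62.2). Car2, Car5b, Car8, Car12 and Car14 have every orange point below every blue one, and Car10 has the reverse.

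Car8 differed most. Its protein keeps the carbonic anhydrase fold without the enzyme activity, and in Purkinje cells it lowers the affinity of the inositol trisphosphate receptor for its ligand. Its brightest probe set read 930.3, 879.4 and 918.7 on the neocortical arrays and 214.6, 194.7 and 48.9 on the cerebellar arrays. The neocortical readings lay close together, and every cerebellar reading was dim, with array 3 under the floor. The log2 difference was -2.73 ± 0.446 (SE), a 6.61-fold lower signal whose size is uncertain because the lower group was dim. Without cerebellar array 3 it was -2.15 ± 0.214.

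The other Car8 probe sets were dim and were not tested. The brighter of them read 199.1, 73.1 and 124.5 on neocortical and 3.13, 20.3 and 65.5 on cerebellar arrays, so its groups did not overlap either and it pointed the same way. The dimmest read 104, 73.2 and 11 on neocortical and 13.1, 15.2 and 13.2 on cerebellar arrays, and its groups overlapped through neocortical array 3.

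Purkinje cell markers are given beside Car8 because those cells are its best known source. Of the 10 listed markers with a single-gene probe set, 6 were tested, 0 were called higher in cerebellar samples and 1 was called lower, and the median difference was 0.05. At an unadjusted limma p under 0.05, 2 were higher, and with array number as a replicate block Pvalb was called higher (adjusted p = 0.0386). Pvalb read 367.1, 604 and 545.9 on neocortical and 740.6, 951.2 and 878.9 on cerebellar arrays. Homer3 read 917.3, 954 and 990.5 against 1561.8, 1260.7 and 1068.7. Both lay higher on every cerebellar array, and the main fit called neither (adjusted p = 0.0653 and 0.157). Rora, the brightest of the list, overlapped between groups. The marker called lower was Gad1, which makes GABA and is shared by inhibitory neurons, at 625.4 ± 372.5 in neocortical and 157.4 ± 4.97 in cerebellar samples (SD, n = 3 each, adjusted p = 0.0239). It was lost without neocortical array 2 or 3 or cerebellar array 2 or 3, with adjusted p up to 0.0826, and with no filter on dim probe sets (adjusted p = 0.127). Pcp2, a defining Purkinje gene, was dim on all arrays, from 18.9 to 139.1. Most of the list's summed signal was Rora (means of 2312.9 in neocortical and 1941.8 in cerebellar samples) and Homer3 (953.9 and 1297.1). The sum therefore says little of the other markers. The summed signal of the list was 4182.3 to 5989.9 on neocortical and 4608.9 to 5399.6 on cerebellar arrays, and the ranges overlapped (two-sided exact permutation p = 1).

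Among 12636 other tested genes, the profile over the 6 arrays most like that of Car8 belonged to Fhod3, Tgif1, Pdzd2, Nupr1l and Asah2, with Pearson correlations of 0.9988 to 0.9964 on log2 values. All 5 were lower on every cerebellar array than on any neocortical one and lowest on cerebellar array 3. Correlations of at least 0.98 were found for 66 genes (0.522%), and with 6 points dominated by the step between regions such values are a description only. Pdzd2 had the largest of the 5 differences, at -3.31 ± 0.442 (SE).

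**Figure D2:**
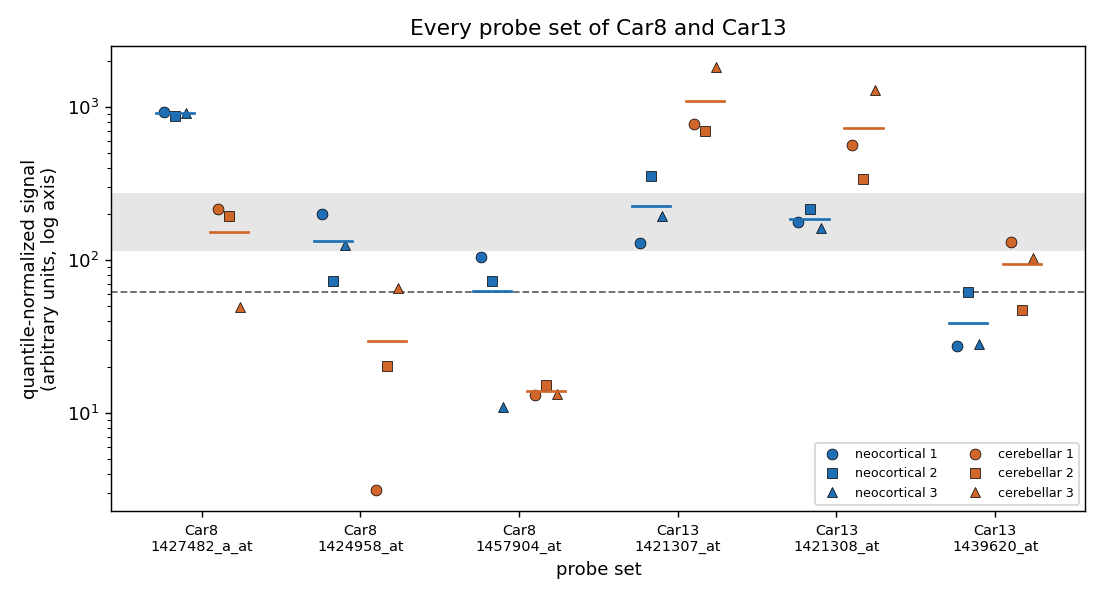
Quantile-normalized signal (arbitrary units, log axis) of every probe set of Car8 and of Car13 on the 3 neocortical (blue) and 3 cerebellar (orange) arrays, with bars for group means, the grey band for dim readings (116 to 269.2) and the dashed line for the floor (62.2). The bright Car8 probe set sits at 879.4 to 930.3 on neocortical arrays and at 48.9 to 214.6 on cerebellar arrays, and the first 2 Car13 probe sets show the opposite order.

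Car2, the fast cytosolic isozyme, was the best measured gene of the family here. It read 4582.8, 5227.6 and 4778 on neocortical arrays and 2630, 3196.6 and 2058.8 on cerebellar arrays. The highest cerebellar reading lay well under the lowest neocortical one. The difference was -0.91 ± 0.16 (SE), or 1.88-fold. It was -0.74 to -1.08 over 15 alternatives and was past the threshold in 14 of them.

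Oligodendrocytes are rich in Car2, so their markers are given beside it. Of 7 tested markers of that lineage 1 was called higher, 0 were called lower and 6 did not pass, and at an unadjusted limma p under 0.05 1 was lower. Mal, a myelin membrane gene, lay lower on every cerebellar array, as Car2 did, with 940.7, 1596.3 and 1107.8 on neocortical and 569.8, 788.6 and 852.5 on cerebellar arrays. It was named once its values were known. Its difference of -0.71 ± 0.24 (SE) was not called (adjusted p = 0.0973) but was called lower with the replicate block (adjusted p = 0.0453). The one called higher was the myelin gene Mbp, at 185.4 ± 116.6 in neocortical and 991 ± 227.6 in cerebellar samples (SD, n = 3 each, adjusted p = 0.0133), with 1 neocortical array at the floor. With no filter on dim probe sets Mbp was not called (adjusted p = 0.12). Mog, another defining myelin gene, was at the floor on every array. The summed list read 45317 to 54595.3 on neocortical and 46561.1 to 71908.4 on cerebellar arrays (exact permutation p = 0.4, two-sided). Most of that sum was Cnp, at 44841.6, 48500.9 and 40267.5 on neocortical and 43039.8, 66201 and 46279.3 on cerebellar arrays. The Cnp probe set is of a kind that may also detect related sequences, so the sum says little of the other markers. Cnp and Pdgfra, the brightest of the list, overlapped between groups. The part of oligodendrocyte RNA in the Car2 signal was not tested. In such bulk samples fewer cells of a type and less RNA per cell cannot be told apart.

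Car5b, a mitochondrial isozyme that supplies bicarbonate for biosynthesis, was measured by a pair of probe sets. The brighter read 1145.6, 843 and 1012.2 on neocortical and 644.6, 577.6 and 431.9 on cerebellar arrays, without overlap, a difference of -0.87 ± 0.214 (SE). The other read 448.6, 670.1 and 789.2 against 488.5, 324.1 and 259.5. Its difference was nearly as large, -0.84 ± 0.311 (SE), but the groups overlapped through neocortical array 1 and it was not called. The call of the brighter probe set was lost when any array other than cerebellar array 1 was left out, with differences of -0.70 to -0.99.

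Car3, a cytosolic isozyme of low activity that is abundant in muscle and fat, did not separate the regions. The brightest probe set read 988, 1506.5 and 1108.9 on neocortical and 629.3, 1186.5 and 991.4 on cerebellar arrays, with overlapping groups and a difference of -0.39 ± 0.259 (SE). A second tested probe set had a difference of the opposite sign, 0.23 ± 0.311 (SE), and the remaining pair were dim. Skeletal muscle markers summed to 1803.6, 1843.8 and 1385.8 on neocortical and 2212.6, 2393.6 and 1828.8 on cerebellar arrays, higher on the cerebellar array of each number, while the groups overlapped (exact permutation p = 0.2, two-sided, without the pairing). Of 3 tested muscle markers 0 were called, 1 was higher at an unadjusted limma p under 0.05, and with the replicate block Des, a muscle filament gene, was called higher (adjusted p = 0.0281). Acta1, the brightest of that list, overlapped between groups.

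Car7, a cytosolic isozyme of neurons, was dim on every array. Its brightest probe set read 147.6, 238.5 and 245.7 on neocortical and 75.2, 256.1 and 148.7 on cerebellar arrays, with overlap and a difference of -0.53 ± 0.517 (SE). It passed the filter on dim probe sets narrowly, with a mean of 185.3 against a limit of 184. Car10, at 159.7, was the nearest gene under it.

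The membrane-bound enzymes face the outside of the cell, where they buffer the extracellular space. Car9, a transmembrane form induced by hypoxia in many cells, read 1013.6, 635.1 and 899.3 on neocortical and 481.4, 673.2 and 294.1 on cerebellar arrays. Cerebellar array 2 exceeded neocortical array 2, so the groups overlapped. The difference of -0.87 ± 0.318 (SE) equalled that of Car5b in size and was not called, since the arrays of a group differed more.

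Car14, another transmembrane form, read 361.1, 408.1 and 442.4 on neocortical and 326.8, 87.2 and 153.1 on cerebellar arrays. The groups did not overlap, but cerebellar array 1 lay near the neocortical arrays and the others were dim. The difference was -1.3 ± 0.464 (SE) and was not called. Without cerebellar array 1 it was -1.8 ± 0.381 and was called. Its probe set, like the brightest of Car4 and Car7, is of the kind that may also detect related sequences. Among the list genes the same holds for Itpr2, Ak4, Mbp, Ttr, Cnp, Gja1, Adm, Ndrg1, Cbln1 and Aif1.

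Car12, a transmembrane form of secretory epithelia, was dim throughout and was not tested. Its brightest probe set read 129.5, 225.5 and 227.4 on neocortical and 121, 111.9 and 106.7 on cerebellar arrays, lower on every cerebellar array by a narrow gap. Its other probe sets read at most 74.9. Car4, the lipid-anchored form of brain capillaries, was also dim and not tested, with its brightest probe set at 71.8, 112.9 and 52.8 on neocortical and 99.2, 91.9 and 133.1 on cerebellar arrays. Those groups overlapped.

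Choroid plexus and endothelium also carry carbonic anhydrases, so their markers are given beside the membrane-bound forms. Of the 9 choroid plexus markers with a probe set, 6 were tested and 4 were called lower in cerebellar samples, namely Folr1 (4.19-fold), Otx2 (12.1-fold), Sostdc1 (6.08-fold) and Kcnj13 (5.48-fold), with adjusted p of 0.000206, 0.0014, 7.86e-05 and 0.00735. With no filter on dim probe sets Kcnj13 was not called (adjusted p = 0.0896). The cerebellar mean of Otx2 was dim. The summed list read 10447.1 to 10825.9 on neocortical and 2464.6 to 3062.9 on cerebellar arrays (exact permutation p = 0.1, two-sided, the smallest that 3 arrays against 3 allow). Ttr, the defining choroid plexus transcript, read 1300.6, 1379.3 and 175.4 on neocortical and 341.6, 547.3 and 501.1 on cerebellar arrays and overlapped between groups, as did Clic6, while Kl was at the floor on every array. Otx2 is also a forebrain factor. The part of choroid plexus RNA in the carbonic anhydrase signals was not tested.

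Of 4 tested endothelial markers, Kdr and Slco1a4 were called lower in cerebellar samples, by 2.96-fold and 3.36-fold (adjusted p = 0.00296 and 0.00094), while Cdh5 and Esam overlapped between groups and Pecam1 was at the floor on every array. The endothelial sum read 14888.6 to 17762.7 on neocortical and 5410.8 to 7601.1 on cerebellar arrays (exact permutation p = 0.1, two-sided), and most of it was Slco1a4. Car4, the capillary form, was dim in both groups. The part of endothelial RNA in the family signals was not tested.

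Car10, which like Car8 lacks enzyme activity and is a secreted partner of neurexins, was the only one of the 10 genes higher on every cerebellar array. Its brighter probe set read 62.8, 92.2 and 7.5 on neocortical and 321.9, 244.6 and 229.3 on cerebellar arrays. Only cerebellar array 1 lay above the dim range, and the probe set's mean was too low for it to be tested. The second probe set read 218.6, 143.7 and 110.4 against 21.9, 187.9 and 249.2 and did not separate the groups. Of the neurexin genes, Nrxn2 was lower in cerebellar astrocytes, with 2006.6 ± 428.3 in neocortical and 837.3 ± 246.6 in cerebellar samples (SD, n = 3 each, adjusted p = 0.0141), and Nrxn3 did not pass (-0.54 ± 0.301, SE, adjusted p = 0.297). The Nrxn2 call was lost without neocortical array 2 or 3, with adjusted p up to 0.0713, and with no filter on dim probe sets (adjusted p = 0.108).

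**Figure D3:**
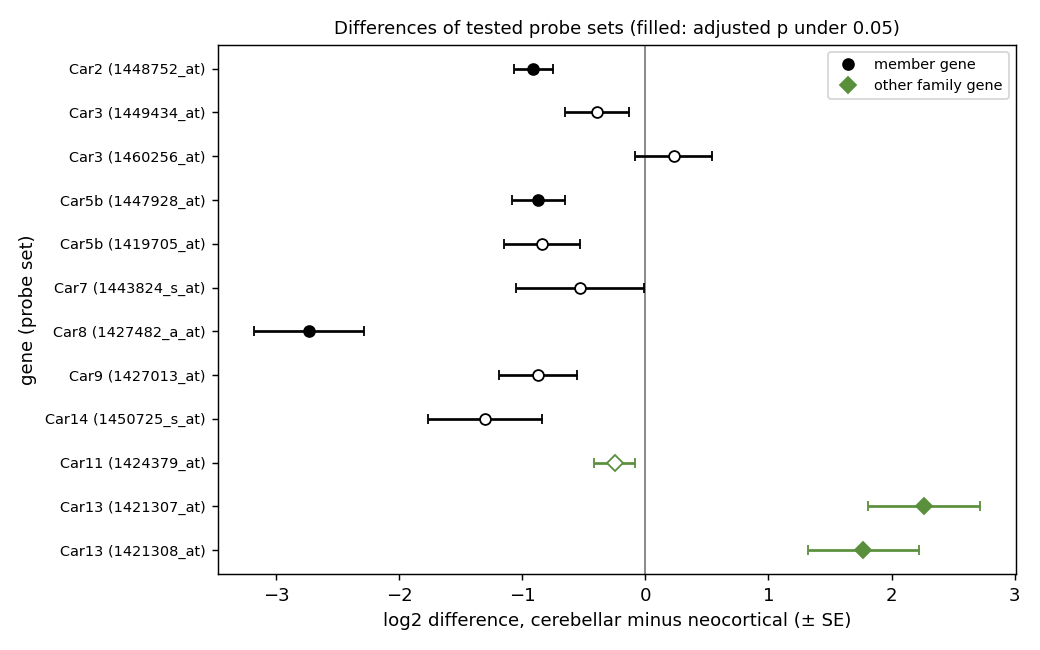
Log2 differences, cerebellar minus neocortical, with SE bars for the 9 tested probe sets of the 10 family genes (black circles) and the 3 tested probe sets of other family genes (green diamonds), filled where the adjusted p of the fit over all probe sets was under 0.05. Car8 lies farthest to the left at -2.73 and Car13 farthest to the right at 2.26, and Car3 has a probe set on each side of 0.

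Family genes outside the 10 were mostly dim. Of Car1, Car5a, Car6, Car11, Car13 and Car15, only Car11 and Car13 were bright enough to be tested. Car13, a cytosolic isozyme, was higher in cerebellar astrocytes. It read 128.6, 355.3 and 194.6 on neocortical and 775.4, 696.3 and 1826.4 on cerebellar arrays by its brightest probe set, a difference of 2.26 ± 0.454 (SE, 4.8-fold, adjusted p = 0.0153). A second probe set passed as well, with 1.77 ± 0.45 (SE, adjusted p = 0.0386), and both neocortical means were dim. The call of the first was lost without neocortical array 1 (adjusted p = 0.0548) or 3 (adjusted p = 0.0632), and with no filter on dim probe sets (adjusted p = 0.125), and it was kept in 11 of 15 alternatives. Car11, the other inactive relative, read 1459.8 to 2066.7 on neocortical and 1314.7 to 1631.8 on cerebellar arrays with a negative difference that did not pass (-0.25 ± 0.168, SE, adjusted p = 0.383).

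Car13, Car1, Car3 and Car2 follow each other on mouse chromosome 3 with no other protein-coding gene between them in the GRCm38.p6 gene table. Along that run the arrays gave 4 different pictures: Car13 was higher in cerebellar astrocytes, Car1 was dim with readings of 16.6 to 117.2, Car3 overlapped between the groups, and Car2 was lower on every cerebellar array.

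The cerebellar arrays also differed among themselves. Among the 7 tested genes, by brightest probe set, cerebellar array 3 was the lowest array for Car2, Car5b, Car8 and Car9. Cerebellar array 1 was the lowest for Car3 (629.3) and Car7 (75.2), and cerebellar array 2 for Car14 (87.2). For Car13, cerebellar array 3 was the highest. Fibroblast and meningeal markers summed to 70265.5, 140451.6 and 240183 on cerebellar arrays 1, 2 and 3, against 102623.5 to 152265.9 on neocortical arrays, so cerebellar array 3 was also the highest for that list. In the astrocyte marker sums given above, array 1 and not array 3 was the lowest. The part of fibroblast RNA in the carbonic anhydrase signals was not tested.

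Partners of the enzymes in acid handling were examined as a list of 26 bicarbonate and proton transport genes, of which 17 were tested. In cerebellar astrocytes 2 of these passed as lower and 0 as higher, and the remaining 15 missed the threshold, with a median difference of -0.1. At an unadjusted limma p under 0.05 the counts were 6 lower and 0 higher. Slc16a1, a carrier of lactate and protons whose transport Car2 aids, read 32421.7, 42404.5 and 34437.9 on neocortical and 17860.6, 22835.7 and 21920.8 on cerebellar arrays, a difference of -0.8 ± 0.126 (SE, adjusted p = 0.00512) that was called with any 1 array left out but not with the filter on dim probe sets removed (adjusted p = 0.0698). Slc4a3, an anion exchanger, was 1.47-fold lower (adjusted p = 0.0345), a call kept only when cerebellar array 3 was the array left out. Slc4a4, the main sodium bicarbonate cotransporter in astrocytes (a gene singled out once its values were known), lay lower on every cerebellar array (15653.5 ± 1007.5 against 11543.3 ± 2103.7, SD, n = 3 each). The planned fit did not call it (adjusted p = 0.0576), whereas the fit with array number as a replicate block did (adjusted p = 0.0307).

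Because Car8 binds the inositol trisphosphate receptor, genes of that receptor were read within a list of calcium release genes. Of that list 14 of 22 were tested. A total of 2 were higher, 2 were lower and 10 did not pass, with a median of -0.15. Atp2b1, a plasma membrane calcium pump, was 2.8-fold and Plcb4, a phospholipase C that makes inositol trisphosphate, 2.37-fold higher in cerebellar astrocytes (adjusted p = 0.000456 and 0.000472), and both were called with any 1 array left out. Itpr2, the receptor subtype typical of astrocytes, read 708.6, 719.8 and 699.5 on neocortical and 487.4, 344.3 and 341.5 on cerebellar arrays, so it was lower on the same arrays as Car8 (-0.88 ± 0.217, SE, adjusted p = 0.0348). Itpr2 and the phosphatase gene Inpp5a (1.45-fold lower, adjusted p = 0.0429) were each called in only 1 of the 6 fits with an array left out, with adjusted p up to 0.114 and 0.157, and neither was called with no filter on dim probe sets (adjusted p = 0.0871 and 0.11). Itpr3 overlapped between groups, and Itpr1 was not analysed here.

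**Figure D4:**
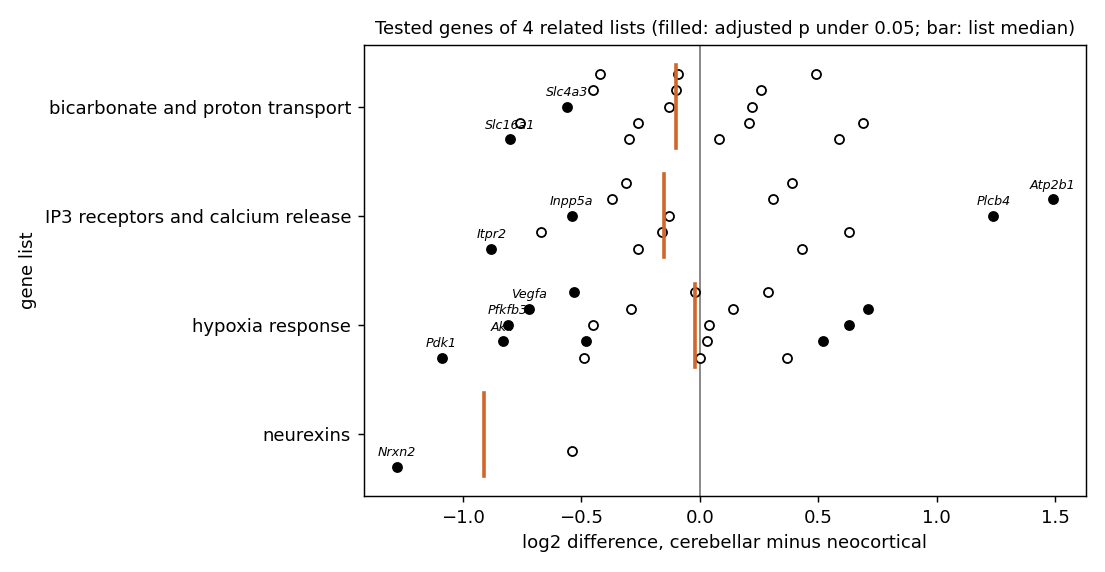
Log2 differences, cerebellar minus neocortical, of each tested gene in lists of bicarbonate and proton transport, calcium release, hypoxia response and neurexin genes, filled where the adjusted p was under 0.05, with an orange bar at the median of each list (-0.1, -0.15, -0.02 and -0.91). The hypoxia and calcium lists have filled points on both sides of 0. Vertical placement within a list carries no value.

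Car9 and Car12 are known targets of the hypoxia-inducible factors, so genes of that response were read beside them. Of 19 tested hypoxia response genes 6 were lower, 3 were higher and 10 did not pass, with a median of -0.02. Over all tested genes, 7.47% were called lower and 5.4% higher. Pdk1 (2.12-fold), Ak4 (1.77-fold), Pfkfb3 (1.76-fold) and Vegfa (1.64-fold), which act in glucose use, nucleotide balance and vessel growth, were lower in cerebellar astrocytes, with adjusted p of 0.0232, 0.0171, 0.00656 and 0.0181. Hif1a itself, Ldha and Egln3, which the naming rule did not pick, were higher, by 1.44-fold, 1.54-fold and 1.64-fold (adjusted p = 0.0065, 0.0055 and 0.00228). Slc2a1 and Egln1, also outside that rule, were lower, by 1.4-fold and 1.44-fold (adjusted p = 0.0251 and 0.027). The number called lower dropped to 3, 1 and 2 without neocortical array 1, 2 or 3, and Pfkfb3 was the one of the 4 first named that was called with any array left out. With no filter on dim probe sets, Pdk1, Ak4, Vegfa and Ldha were not called (adjusted p = 0.135, 0.0896, 0.0731 and 0.0599). Nor were Slc2a1 and Egln1 under that setting (adjusted p = 0.0977 and 0.0952). With arrays scaled by the median, 1 gene was called higher.

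The windows of 250 bases before the start sites of Car9 and Car5b are shown because both genes had the same difference between regions and Car9 is the family's best known hypoxia target. They come from RefSeq on GRCm38.p6, whose promoter table held 7 of the 10 genes and neither Car2, Car3 nor Car8. Capitals mark the core words of the hypoxia response element, ACGTG or GCGTG, on either strand (CACGT or CACGC when read on the other). ACGTG is also part of the E-box CACGTG.
Car9, chr4:43506776-43507025, plus strand: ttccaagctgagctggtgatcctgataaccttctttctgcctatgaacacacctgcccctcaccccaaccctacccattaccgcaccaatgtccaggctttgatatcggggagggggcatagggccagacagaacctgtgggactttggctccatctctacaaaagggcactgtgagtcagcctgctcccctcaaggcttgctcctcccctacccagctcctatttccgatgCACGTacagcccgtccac
Car5b, chrX:164028011-164028260, minus strand: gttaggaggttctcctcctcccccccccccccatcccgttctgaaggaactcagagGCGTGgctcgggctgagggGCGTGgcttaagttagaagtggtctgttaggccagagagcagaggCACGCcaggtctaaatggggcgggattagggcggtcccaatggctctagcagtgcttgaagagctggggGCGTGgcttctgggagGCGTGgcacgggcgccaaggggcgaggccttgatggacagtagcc

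The Car9 window held 1 such word, CACGT, which begins 18 bases before the start site. At least 1 word was present in 38.6% of all 32851 promoter windows of that length. The Car5b window held 5 words, a number reached by 1.01% of all windows, and all were of the GCGTG form or its complement. The window of Car12, the other known target, held 0. A match is a description of these letters and not evidence of binding.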

How the data were processed

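The table deposited by the authors holds 1 linear intensity value per probe set and array, for 45101 probe sets. How it was summarised is not given in the sources used here. Array medians ran from 284.7 to 361.2, beyond the 10% set for using the values as deposited, so quantile normalization was applied to the 45037 probe sets that are not controls, with values raised to a floor at the 20th percentile (62.2) before log2 was taken. The fit covered probe sets whose mean reached the 40th percentile and used limma 3.58.1 in R 4.3.3 (lmFit, eBayes with a variance trend, Benjamini-Hochberg adjustment, threshold 0.05, two-sided). The script was tested on simulated data. Arrays that share a number deviated together weakly, with correlations of 0.182, 0.186 and 0.101, against -0.184 to 0.0261 for unlike numbers. Values were centred within each group of 3, which lowers the latter where the former are positive, and the array titles state no pairing. The array numbers were therefore treated as a possible pairing, in an alternative fit. The main fit had no block, as planned.

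Symbols came from the platform annotation, updated through Entrez ID for 34741 of 34945 single-symbol probe sets. Coordinates are given for RefSeq promoter windows alone, since no source names a genome build for the table. The genes and lists were chosen with earlier results of these data known. The naming rule picked all 10 genes, the other family genes and the 5 genes most correlated with Car8. From each list it picked up to 4 called genes, with the 2 brightest where fewer than 2 were called. Other list genes named here, such as Gfap, Pcp2, Mog, Ttr and Cdh5, were added outside that rule. Mal, Slc4a4, Pvalb, Nefm, Slc2a1 and Egln1 were added once their values were known. Lists are described by counts and medians, and the summed signal of a marker list was compared by an exact permutation test over the arrays that ignores any pairing. No enrichment test was run. Alternatives were other scalings, floors and filters, no variance trend, the replicate block, probe sets averaged by gene and each array left out. The number of arrays limits the precision.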

Additional observations from a re-analysis of the deposited data

How the results depend on the processing

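Each of the 7 tested genes kept its sign under every alternative that gave it a value. Of 15 alternatives, 13 gave a value for Car8, 10 for Car7 and 14 for Car14, because these genes fell under the filter in the others. With no filter on dim probe sets, 577 probe sets were called higher and 704 lower. Under that setting Car2 and Car8 kept their differences of -0.91 and -2.73 but missed the threshold, so 0 of the 10 family genes were called lower, and 1 was called higher, which was Car10 (1.88 ± 0.24, SE). Of the lists, 0 of the other family genes were higher, and 0 calcium, 0 neurexin, 1 transport and 1 hypoxia genes were lower. Without a variance trend 678 and 928 probe sets were called, Car5b was not called, 0 of the other family genes were higher, 1 transport, 1 calcium, 1 hypoxia and 0 neurexin genes were lower, and 1 hypoxia gene was higher. With scaling by array medians 821 probe sets were higher, 4 transport and 4 calcium genes were lower, and 1 hypoxia gene was higher. That scaling moved the median difference of all probe sets from 0.009 to -0.096. The calcium genes called lower were 1 with the values as deposited and 1 with the dimmest 60% of probe sets left out. With probe sets averaged by gene, 0 transport, 0 neurexin and 2 hypoxia genes were lower. The causes were not tested.

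With 1 array left out in turn, 551 to 1244 probe sets were called higher and 669 to 1561 lower, with 2 to 4 of the 10 family genes lower and 0 to 1 of the other family genes higher. Lower calls ran from 1 to 2 for transport, 0 to 2 for calcium, 1 to 6 for hypoxia and 0 to 1 for neurexin genes. With the replicate block, which treats arrays of one number as paired, 1571 probe sets were called higher and 1809 lower, and 3 of the 10 family genes were lower and 0 higher. The block changed no call among the family genes. Signals within the range of the bacterial controls limit what can be said of Car4, Car7, Car10 and Car12.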

Other observations

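The remaining marker lists were those of microglia, fibroblasts and neurons, to be read beside the 7.47% of all tested genes called lower and 5.4% called higher. Of 10 microglia markers, the receptor gene Csf1r differed by 0 ± 0.584 (SE) and C1qa by -0.01 ± 0.62 (SE). All 10 were tested with limma, and 0 were higher and 0 lower in cerebellar samples, also at an unadjusted p under 0.05. Their summed signal varied widely within each region, from 11612.3 to 32218.9 on neocortical and from 6585.6 to 36742.1 on cerebellar arrays. Of 9 tested fibroblast and meningeal markers, Ogn, a small matrix proteoglycan, was 5.43-fold lower and Islr 2.08-fold lower in cerebellar samples (adjusted p = 0.000447 and 0.000487), and none was called higher. At an unadjusted p under 0.05, 1 of that list was higher, and with the replicate block 2 were called higher. Without cerebellar array 1, 3 of the list were called higher. Of 5 tested neuronal markers the synaptic vesicle gene Syt1 was 1.59-fold lower (adjusted p = 0.0222). That call was lost when any neocortical array was left out (highest adjusted p = 0.0891) or no filter on dim probe sets was used (adjusted p = 0.0536). Nefm read 244.4, 337.1 and 214.5 on neocortical and 449.7, 418.8 and 450.9 on cerebellar arrays, higher on each of the latter, and was not called (adjusted p = 0.111). At an unadjusted limma p under 0.05, 1 neuronal marker was higher and 1 lower. The list median was 0.14, and Stmn2, its brightest gene, overlapped between groups.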
